A study of Drosophila melanogaster with 12 samples.

Results

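The difference between the LPS responses of Tis11-depleted and control cells was measured in all 12 arrays of the series, in 4 groups of 3 biological repeats. SL2 cells, an established Drosophila line of blood cell origin with macrophage-like properties, had taken up 12.5 µg/ml of double-stranded RNA (dsRNA) for 4 days. The dsRNA was directed against Tis11 (Tis11 kd) or, as a control, against GFP (GFP kd), and 1 group of each received 10 µg/ml lipopolysaccharide (LPS) for 4 h. All 4 groups therefore carry a dsRNA, and the stimulated and unstimulated groups differ, by their labels, only in LPS. The LPS response of a background is the mean log2 value of its LPS arrays minus that of its arrays without LPS, and the interaction is the response in Tis11 kd cells minus the response in GFP kd cells. An interaction of 1 means a response larger by a factor of 2 in Tis11 kd cells. Of 18952 probe sets, 18769 remained after 183 control probe sets were left out, and 13647 of these are annotated to 1 gene. Tis11 mRNA was not analysed here, as none of the annotated probe sets names it, and the depletion could not be checked on these arrays. The study reports separate Northern blot and qPCR checks of the knockdown, with strong suppression of Tis11 mRNA.

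In Drosophila, peptidoglycan of Gram-negative bacteria, which most LPS preparations contain, is sensed by peptidoglycan recognition proteins (PGRPs) and activates the Imd pathway. The pathway ends in the NF-κB factor Relish (Rel), which switches on genes of antimicrobial peptides and, as feedback, of its own inhibitors. Tis11 is the fly member of the tristetraprolin family, zinc finger proteins that bind AU-rich elements in 3′UTRs and speed up mRNA decay. In mammals the family limits the mRNAs of inflammatory mediators, so the interaction asks whether the LPS response was larger, smaller or alike when Tis11 was depleted.

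The cell type was checked on 7 plasmatocyte (macrophage-like blood cell) markers, all measured, with mean log2 values from 7.20 to 12.05. The 4 measured fat body markers lay between 4.73 and 5.34 and the 3 neuronal ones between 5.06 and 5.76, near the array background. The 4 crystal cell markers, all measured, ran from 3.44 to 9.55, with lz at 3.44 and PPO1 and PPO2 at 7.54 and 9.55. The 5 lamellocyte markers, all measured, ran from 4.83 to 10.48. Some markers of these other blood cell types thus lay in the range of the plasmatocyte markers. The interaction was below 0 for 7 of 7 plasmatocyte markers (median −0.15, −0.16 after quantile normalization was applied again, where 4 of 7 were below 0). The bearing of these markers on the other results was not tested.

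No probe set passed the threshold for the interaction (limma, adjusted p under 0.05 after Benjamini-Hochberg over all probe sets). The smallest adjusted p was 1.00. An unadjusted p under 0.05 means that the 95% interval of the interaction excludes 0. At this limit 305 probe sets were higher and 68 lower in Tis11 kd cells. Together they are 1.99% of all, where 5% would be expected from independent arrays without any difference. The split into higher and lower turned to 85 and 173 when each array was centred on its median. It stood at 167 and 85 after quantile normalization was applied again. The interaction was over 0.5 for 31 probe sets and under −0.5 for 155. It exceeded 1 in 0 and was under −1 in 2. With 3 arrays a group, an exact permutation test of 2 groups cannot go below p = 0.1. This limit does not apply to the interaction, which uses 4 groups. Given so few arrays and a share under 5%, the absence of passing probe sets is not read as equal responses.

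To describe the genes that LPS induced, probe sets were chosen by the mean of both LPS responses. In this balanced design the value of this mean is arithmetically separate from that of the interaction. The tests of both use the same spread, so the choice is not separate from the width of the intervals. By limma, 29 probe sets were raised (0.155% of those tested, adjusted p under 0.05) and 0 were lowered, with 377 and 434 at an unadjusted p under 0.05. Of the 29, 20 are annotated to 1 gene, 2 to several and 7 to none. The count was 18 without Tis11 kd + LPS repeat 2, Tis11 kd repeat 3 or GFP kd repeat 2, and 19 without Tis11 kd repeat 1. With array weights, 68 were raised and 8 lowered. The mean response ran from 0.58 to 6.76. Sulf1, Sema5c and SCaMC lay just inside the threshold (adjusted p = 0.047 for each by limma), and Rel just outside it (adjusted p = 0.052).

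The responses of both backgrounds were alike in size over these 29 probe sets, with a median of 2.07 in GFP kd cells and 2.12 in Tis11 kd cells. Taken alone, the GFP kd response passed for 14 probe sets (0.0746% of those tested) and the Tis11 kd response for 16 (0.0852%), all among the 29. The 14 of GFP kd cells passed in Tis11 kd cells as well, which is 100% of the GFP kd calls and 87.5% of the Tis11 kd calls. The other two were CecB, with an adjusted p of 0.052 in GFP kd cells and 0.038 in Tis11 kd cells by limma, and the unnamed probe set 1637950_at, with 0.070 and 0.006. Their interactions were 0.10 and 0.41, and neither passed. The LPS arrays lay above the unstimulated arrays without overlap for 29 of 29 in GFP kd and 28 of 29 in Tis11 kd cells, against 2.15% and 5.04% of all probe sets. As the 29 were chosen by these responses, nothing is read from that count.

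**Figure D1:**
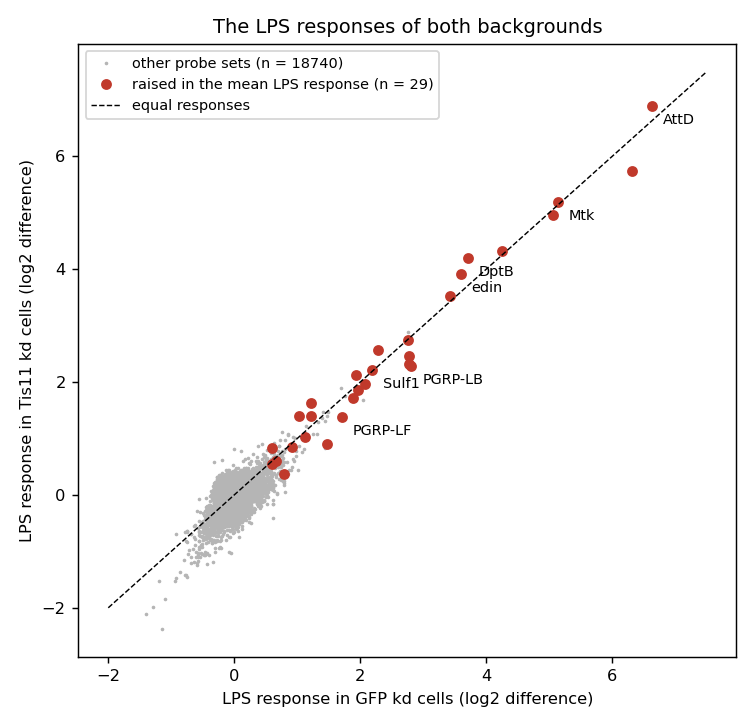
LPS response (log2 difference) of every tested probe set in GFP kd cells (x axis) and Tis11 kd cells (y axis), with the 29 LPS-raised probe sets in red, the other 18740 in grey and the line of equal responses dashed. The 29 lie along the dashed line from below 1 to above 6, with Pearson's r of 0.98. They were chosen by the mean of both responses, which favours a high r, so nothing is read from it.

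Across genes, both responses were related at levels above the array background and hardly below them. Each response uses arrays of its own, so they share no control. The arrays of both backgrounds still shared deviations from their group means. These correlated at up to 0.83 between LPS arrays and 0.85 between unstimulated arrays, and their part in the values below was not tested. Over all 18769 probe sets Pearson's r was 0.63 and Spearman's rho 0.23, and 54.0% had responses of the same sign. Over the 7194 with a mean of at least 6, r was 0.83 and rho 0.59, with 64.7% of the same sign. Over the 11575 under 6, which are most of those tested, r was 0.36 and rho 0.11, with 47.3% of the same sign. Leaving the raised probe sets out, r was 0.72 over the 7174 at a level of 6 or more and 0.47 over all 18740. Over the 29 raised probe sets r was 0.98 and rho 0.97. These 29 were chosen by the mean of both responses, which favours a shared sign and a high r. Nothing is therefore read from r and rho over the 29. All values given are correlations across probe sets, which share arrays and are not independent replicates, and no p is given.

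Among raised probe sets with 1 annotated gene, the largest mean responses were those of AttD, Mtk, DptB, edin and CecB, while the unnamed 1627551_s_at, 1625124_at and 1631697_at lay among them. AttD, which encodes an attacin, had log2 values of 4.54, 3.81 and 3.90 in GFP kd cells and 10.60, 9.91 and 11.65 after LPS, and of 4.22, 4.62 and 4.05 in Tis11 kd cells and 10.94, 12.10 and 10.52 after LPS. LPS raised every array of both backgrounds from near background to a high level, and the LPS arrays of both backgrounds overlapped. The response was 6.63 in GFP kd cells and 6.89 in Tis11 kd cells (99.4-fold and 119-fold), an interaction of 0.26 (SE 0.65, 95% interval −1.19 to 1.70). Unstimulated values near 4 lie at the array background, where differences are compressed, so these folds may understate the change. In bulk samples, more responding cells and more mRNA per cell cannot be told apart.

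Mtk, which encodes metchnikowin, a peptide active against fungi and Gram-positive bacteria, stood at 4.81, 4.79 and 4.20 in GFP kd cells and 9.59, 10.13 and 9.49 after LPS, and at 4.43, 4.82 and 4.68 in Tis11 kd cells and 9.44, 9.80 and 10.28 after LPS. The ranges with LPS covered one another almost fully. The responses were 5.14 and 5.20 (35.2-fold and 36.7-fold), with an interaction of 0.06 (SE 0.35, interval −0.72 to 0.83) that was −0.04 with arrays centred on their medians.

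DptB, which encodes a diptericin against Gram-negative bacteria, had the highest interaction among the 29. Its values were 5.52, 5.04 and 5.01 in GFP kd cells and 9.07, 9.32 and 8.32 after LPS, and 4.88, 5.33 and 5.17 in Tis11 kd cells and 9.34, 8.95 and 9.68 after LPS. Of the GFP kd arrays with LPS, repeat 3 was lower than the rest, and without it the interaction was 0.19. Without repeat 2 of that group instead, the interaction was 0.69. With all arrays it was 0.48 (SE 0.38, interval −0.35 to 1.32, unadjusted p = 0.23 and adjusted p = 1.00 by limma).

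CecB, which encodes a cecropin, a membrane-disrupting peptide, was at 8.47, 7.18 and 6.31 in GFP kd cells and 10.77, 10.31 and 11.18 after LPS. In Tis11 kd cells it was at 7.004, 8.48 and 7.59 and, after LPS, at 11.21, 11.65 and 10.81. The unstimulated arrays spread far more than those with LPS, so the interval of the interaction (0.10, SE 0.73) ran from −1.51 to 1.71. The response was 3.43 in GFP kd cells and 3.53 in Tis11 kd cells.

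The gene edin, induced during infection of flies, was at 6.45, 6.40 and 6.08 in GFP kd cells and 10.49, 9.57 and 9.66 after LPS, and at 6.04, 6.47 and 6.54 in Tis11 kd cells and 10.80, 10.40 and 9.62 after LPS. The LPS arrays of both backgrounds ran from about 9.6 to above 10.4 and overlapped. The responses were 3.60 and 3.92, with an interaction of 0.32 (SE 0.44, interval −0.64 to 1.29).

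Drs, the antifungal peptide drosomycin and a classic Toll target, did not pass for the mean response, with responses of 0.85 and 1.07 and an interaction of 0.22 (SE 0.43). Def, the defensin gene, stayed between 5.10 and 5.58 in all arrays, with responses of −0.11 and 0.26. Its interaction of 0.37 had an interval of 0.02 to 0.71 (unadjusted p = 0.041, adjusted p = 1.00 by limma), at levels near background. Together, 7 of 15 listed antimicrobial peptide genes were measured, with the infection-induced edin counted among them. Of these, 5 were raised by LPS in the mean response, namely AttD, Mtk, DptB, CecB and edin. According to the study, the cecropin mRNA CecA1, a Tis11 target known from earlier work, has no probe set on this array. Of all probe sets the interaction was above 0 for 52.2%, with 23.2% at a mean of at least 6 and 70.2% under 6. Among the measured peptide genes, 5 of 7 have a mean of at least 6, while Def and Drs lie under it. The interaction was above 0 for 7 of 7 (median 0.26), and 0 of 7 passed. After quantile normalization was applied again it was above 0 for 7 of 7 (median 0.28), and with arrays centred on their medians Mtk alone turned below 0. AttD, Mtk, CecB and Drs changed sign when 1 array or another was left out.

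**Figure D2:**
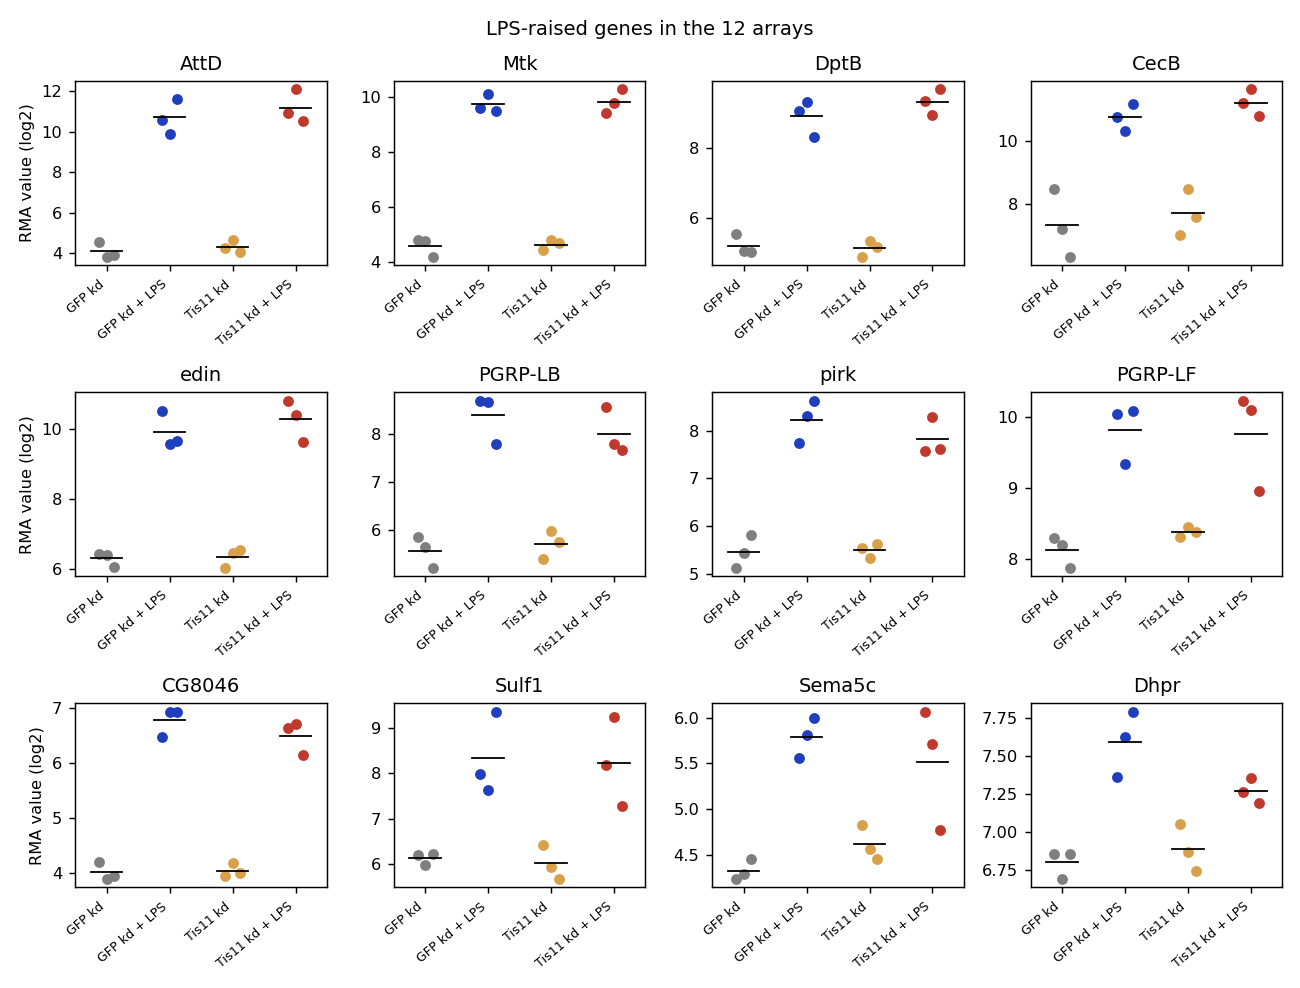
RMA values (log2, y axis, a scale of its own in each panel) of 12 LPS-raised genes in GFP kd, GFP kd + LPS, Tis11 kd and Tis11 kd + LPS cells, each point 1 array (repeats 1 to 3 from left to right) and each line the mean of 3. LPS arrays lie above unstimulated arrays in every panel for GFP kd and, apart from 1 Sema5c array, for Tis11 kd, and only in Dhpr do the LPS arrays of both backgrounds not overlap.

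PGRP-LB, pirk and PGRP-LF, the 3 LPS-raised genes that encode inhibitors of the Imd pathway, each had a lower mean response in Tis11 kd cells, and 0 of 3 passed. PGRP-LB encodes an amidase that degrades peptidoglycan. It was at 5.84, 5.65 and 5.21 in GFP kd cells and 8.69, 8.66 and 7.79 after LPS, and at 5.39, 5.98 and 5.74 in Tis11 kd cells and 8.55, 7.78 and 7.66 after LPS. Of the LPS arrays, 2 of 3 were near 8.7 in GFP kd cells and 2 of 3 under 7.8 in Tis11 kd cells, while the ranges overlapped. The responses were 2.81 and 2.29 (7.03-fold and 4.90-fold), an interaction of −0.52 (SE 0.42, interval −1.46 to 0.42).

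The gene pirk, whose product keeps the receptor PGRP-LC from signalling, was at 5.12, 5.43 and 5.81 in GFP kd cells and 7.74, 8.31 and 8.63 after LPS. In Tis11 kd cells it was at 5.54, 5.33 and 5.62 and, after LPS, at 7.57, 8.29 and 7.61. The unstimulated values overlapped, and of the LPS arrays 2 of Tis11 kd cells were lower than all 3 of GFP kd cells. The responses were 2.78 and 2.32 (6.85-fold and 5.01-fold), an interaction of −0.45 (SE 0.37, interval −1.26 to 0.36).

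PGRP-LF encodes a membrane protein that blocks PGRP-LC. Its values were 8.30, 8.19 and 7.87 in GFP kd cells and 10.04, 9.34 and 10.10 after LPS, and 8.31, 8.45 and 8.38 in Tis11 kd cells and 10.24, 10.10 and 8.96 after LPS. A single Tis11 kd array with LPS, repeat 3, was more than 1 unit below the other two. With it the interaction was −0.32 (SE 0.44, interval −1.28 to 0.64), and without it 0.08. The interaction was −0.56 when GFP kd + LPS repeat 2, the lowest of its group, was left out instead.

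Of 14 listed genes of PGRPs and pirk, 8 were measured and 3, those above, were raised. The interaction of the other measured members was 0.21 for PGRP-SB1 and 0.13 for PGRP-SB2, a pair of secreted PGRPs, and 0.10 for the amidase gene PGRP-SC2. It was −0.22 for PGRP-LA and −0.22 for PGRP-LE, an intracellular sensor. In all 3 were above 0 and 5 below (median −0.22, −0.06 after quantile normalization was applied again, with 5 below). Of all probe sets, 76.8% were below 0 at a mean of at least 6, where 6 of the 8 genes lie, and 29.8% under 6. PGRP-LB, pirk and PGRP-LF stayed below 0 under each rescaling run. The difference between the antimicrobial peptide genes and the inhibitors was not tested.

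Rel itself, the factor at the end of the pathway, had responses of nearly the same mean size in both backgrounds. It was at 10.20, 10.03 and 9.89 in GFP kd cells and 11.65, 10.85 and 11.80 after LPS, and at 10.10, 10.17 and 10.09 in Tis11 kd cells and 11.92, 11.84 and 10.68 after LPS. Each background had 1 LPS array, GFP kd repeat 2 and Tis11 kd repeat 3, well under its other two. The responses were 1.39 and 1.36, with an interaction of −0.04 (SE 0.45, interval −1.03 to 0.95).

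Among the other raised genes, Sema5c, which encodes a semaphorin, had the lowest interaction of the genes with a name. Its values were 4.23, 4.29 and 4.45 in GFP kd cells and 5.56, 5.81 and 5.998 after LPS, and 4.82, 4.56 and 4.45 in Tis11 kd cells and 6.07, 5.72 and 4.77 after LPS. The LPS array of repeat 3 in Tis11 kd cells lay among the unstimulated ones, and without it the interaction went from −0.56 (SE 0.38, interval −1.40 to 0.28) to −0.18. Without the LPS array of repeat 1 instead, it went to −0.83.

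Dhpr, which encodes dihydropteridine reductase, an enzyme that regenerates the cofactor tetrahydrobiopterin, was 1 of 2 raised probe sets whose interval excluded 0. It was at 6.86, 6.69 and 6.86 in GFP kd cells and 7.36, 7.62 and 7.79 after LPS, and at 7.06, 6.87 and 6.74 in Tis11 kd cells and 7.26, 7.35 and 7.19 after LPS. All 3 LPS arrays of Tis11 kd cells lay below all 3 of GFP kd cells, and the unstimulated arrays overlapped. The response was 0.79 in GFP kd cells and 0.38 in Tis11 kd cells (1.73-fold and 1.30-fold), an interaction of −0.41 (SE 0.17, interval −0.80 to −0.03, unadjusted p = 0.038 and adjusted p = 1.00 by limma). After quantile normalization was applied again it was −0.25 with an interval of −0.65 to 0.14.

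The other was the unnamed probe set 1633545_at, with 5.20, 4.77 and 4.99 in GFP kd cells and 6.12, 6.01 and 5.90 after LPS, and 4.99, 5.01 and 4.82 in Tis11 kd cells and 6.30, 6.48 and 6.26 after LPS. Here all 3 LPS arrays of Tis11 kd cells lay above those of GFP kd cells. Its interaction was 0.38 (SE 0.17, interval 0.01 to 0.76, unadjusted p = 0.046 and adjusted p = 1.00 by limma), and 0.43 (interval 0.04 to 0.83) after quantile normalization was applied again. Of the 29 raised probe sets, 2 had an interval that excluded 0 (6.90%, beside 1.99% of all probe sets). The choice of the 29 used the same spread as these intervals, so nothing is read from the difference between these shares. With the replicate number as a block, an intensity trend in eBayes or array weights, the interval excluded 0 for 0 of 29. When arrays were left out in turn, the interval excluded 0 in 5 of 12 fits for Dhpr and in 4 of 12 for 1633545_at.

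CG8046 was at 4.19, 3.89 and 3.95 in GFP kd cells and 6.47, 6.92 and 6.94 after LPS, and at 3.94, 4.17 and 4.01 in Tis11 kd cells and 6.65, 6.72 and 6.14 after LPS. Its LPS arrays overlapped between backgrounds, and the interaction was −0.31 (SE 0.25, interval −0.85 to 0.24). Sulf1, a heparan sulfate sulfatase, showed wide LPS values, 7.98, 7.65 and 9.36 in GFP kd and 8.19, 9.25 and 7.28 in Tis11 kd cells, from unstimulated values of 5.67 to 6.43. Its interaction of 0.03 (SE 0.71) had an interval of −1.53 to 1.59, and it was −0.07 with arrays centred on their medians. The interaction was 0.18 for CG15423, −0.10 for ome, a dipeptidyl peptidase gene, −0.10 for CG8008 and −0.09 for CG33468, with standard errors from 0.29 to 0.64.

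Of unnamed probe sets, 1627551_s_at had the lowest interaction of the 29. It was at 7.04, 6.28 and 6.07 in GFP kd cells and 13.16, 12.28 and 12.88 after LPS, and at 7.32, 7.25 and 6.97 in Tis11 kd cells and 13.31, 13.29 and 12.18 after LPS. The Tis11 kd arrays were higher than most GFP kd arrays before LPS, and the LPS arrays overlapped near the top of the scale. The responses were 6.31 and 5.74, and the interaction was −0.57 (SE 0.49, interval −1.64 to 0.51). The probe sets 1637950_at and 1636293_at followed DptB at the upper end, with 0.41 (SE 0.27) and 0.30 (SE 0.38).

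Over the 29, the interaction was above 0 for 13 and below 0 for 16, with a median of −0.04 and a range of −0.57 to 0.48. It was under 0.25 in size for 16 and over 0.5 for 3. The LPS arrays of Tis11 kd and GFP kd cells did not overlap for 3 of 29, namely 1633545_at, Dhpr and CG33468, against 9.73% of all probe sets. CG33468 was lower in Tis11 kd cells without LPS as well. In a fit that treats the 12 arrays as independent, the interval lay between −1 and 1 for 11 of the 29, against 85.8% of all probe sets, and between −0.5 and 0.5 for 2. The width of an interval on either side of the estimate ran from 0.38 to 1.61 with a median of 0.84, or 1.79-fold, against a median of 0.42 over all probe sets. Deviations from the group mean were shared by arrays of different groups, with correlations of up to 0.85 between arrays of different repeat numbers, and the part of this in the width of the intervals was not tested. The spread was larger with LPS. The median SD over the 29 was 0.26 in GFP kd cells and 0.16 in Tis11 kd cells, and 0.40 and 0.42 with LPS, where it was larger for 23 and 27 of the 29. Over all probe sets the 4 medians lay between 0.14 and 0.17.

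**Figure D3:**
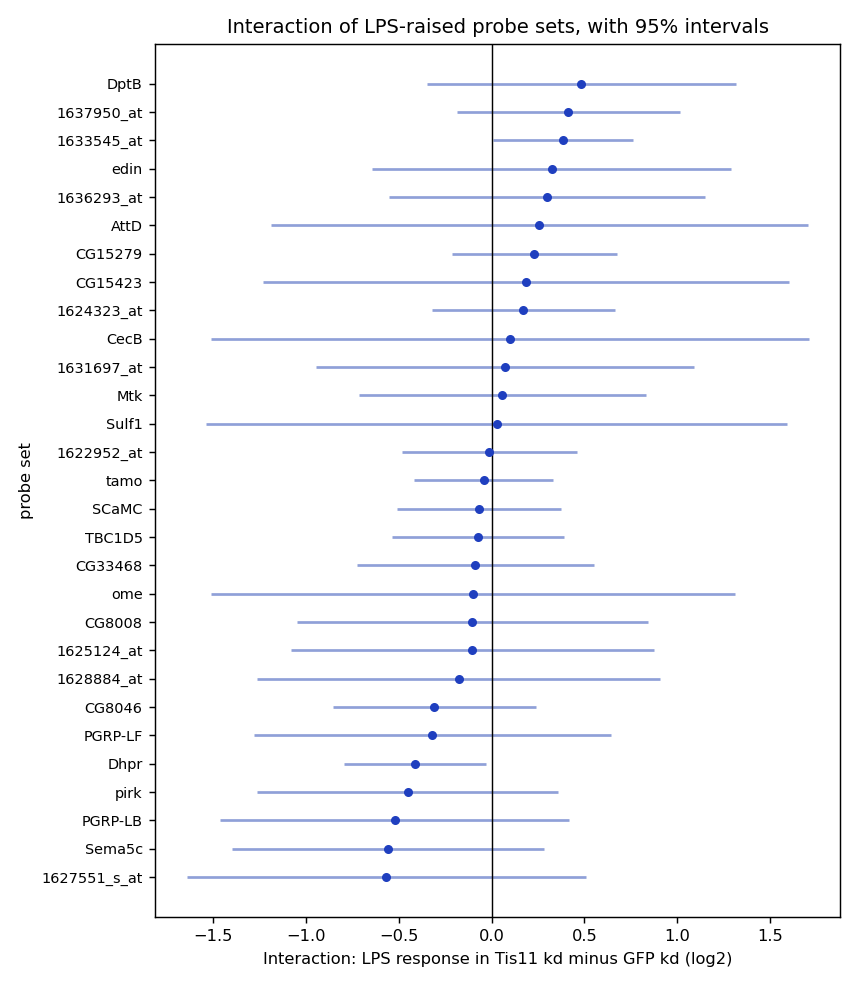
Interaction (LPS response in Tis11 kd minus GFP kd, log2, x axis) of the 29 LPS-raised probe sets, ordered by value, with 95% intervals from limma. The points run from −0.57 to 0.48 on both sides of 0, and 27 of 29 intervals include 0.

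The LPS arrays also differed within their groups. Of the 3 GFP kd arrays with LPS, repeat 2 was the lowest for 14 of the 29 probe sets and repeat 3 the highest for 16. Of the 3 Tis11 kd arrays with LPS, repeat 3 was the lowest for 21 and repeat 2 the highest for 14. The order was partly shared, as GFP kd repeat 2 and Tis11 kd repeat 3 were both the lowest for 13 of the 29. Mtk, DptB and the raised gene tamo ran the other way, with their highest values in GFP kd repeat 2 and Tis11 kd repeat 3. Without Tis11 kd + LPS repeat 3 the median interaction of the 29 went from −0.04 to 0.14, and without Tis11 kd + LPS repeat 2 to −0.19.

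The sign of the interaction depended on the signal level. It was below 0 for 76.8% of the 7194 probe sets whose mean was at least 6 (median −0.10) and for 29.8% of the 11575 under 6 (median 0.08). By level, the median rose from 0.03 under 4 to 0.11 between 5 and 6, was −0.14 between 6 and 7 and −0.16 between 7 and 8, and returned to −0.02 above 10. When quantile normalization was applied again, 51.8% and 46.8% were below 0, with medians of −0.01 and 0.01. In the deposited values the median of the arrays ran from 5.05 to 5.22, and Tis11 kd + LPS repeat 2 had the highest median (5.22) together with the lowest upper quartile (7.59). Counts of members above or below 0 are therefore to be read beside these shares.

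**Figure D4:**
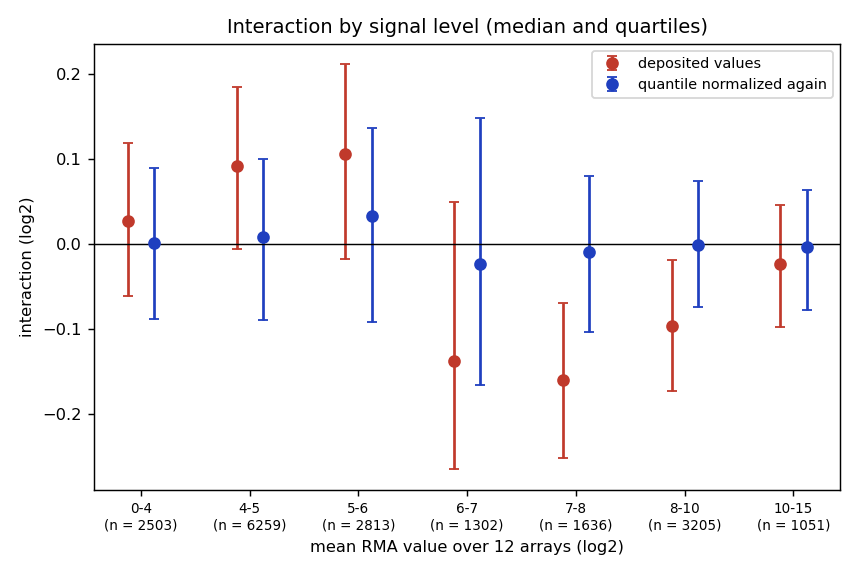
Interaction (log2, y axis) of all tested probe sets by their mean RMA value over 12 arrays (x axis, number of probe sets in parentheses), as median with quartiles, in the deposited values (red) and after quantile normalization was applied again (blue). The red medians lie above 0 under a level of 6 and below 0 over it, at most 0.11 and at least −0.16, and the blue ones lie between −0.02 and 0.03.

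Outside the raised set, 15 probe sets had a mean response over 1 without passing. Their arrays spread widely within groups, and their interactions ran from −0.62 to 0.20. CG14567, singled out after its values were seen, was at 5.85, 5.59 and 6.01 in GFP kd cells and 8.32, 6.65 and 10.78 after LPS. In Tis11 kd cells it was at 6.13, 6.15 and 5.87 and, after LPS, at 9.13, 10.79 and 6.90. All LPS arrays lay above all unstimulated ones, by amounts that differed severalfold between repeats. The responses were 2.77 and 2.89, with an interaction of 0.12 (SE 1.44). A mean response under −1 was seen for 11 probe sets, of which 0 passed (smallest adjusted p = 0.49 by limma). In all 11 both responses were below 0 and the fall was larger in Tis11 kd cells, with interactions from −1.23 to −0.33. Of all probe sets, 76.8% had an interaction below 0 at a mean of at least 6, where most of the 11 lie, and 29.8% under 6. Most of the 11 also shared the order of their unstimulated arrays, so they are not separate observations, and nothing is read from their count. The LPS and unstimulated arrays overlapped for 11 of 11 in GFP kd cells and for 10 of 11 in Tis11 kd cells.

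Of the members of 5 lists of immune and stress signalling genes, 0 passed for the interaction, and 0 were raised in the mean LPS response. Of 13 listed Imd signalling genes 11 were measured, with interactions from −0.30 (Tab2, an adaptor of the kinase TAK1) to 0.06. Of 14 genes of the JNK pathway and AP-1, 13 were measured, from −0.48 for egr, the fly tumour necrosis factor, to 0.11. The p38 pathway ran from −0.30 (p38a, a p38 kinase) to 0.13 over 5 genes, and the Toll pathway from −0.42 (dl, the NF-κB factor Dorsal) to 0.05 over 12. JAK-STAT and Turandot genes ran from −0.29 (dome, the cytokine receptor) to 0.03 over 8. The interaction was below 0 for 8 of 11, 11 of 13, 3 of 5, 9 of 12 and 7 of 8 in these lists, in that order. After quantile normalization was applied again it was below 0 for 5, 9, 2, 11 and 7.

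Of 22 listed mRNA decay factors 15 were measured, with interactions from −0.41 (smg, the RNA-binding repressor Smaug) to 0.08 and 12 of 15 below 0, or 7 of 15 after quantile normalization was applied again. The 6 measured heat shock genes ran from −0.41 (stv, a co-chaperone) to −0.05, and the 4 housekeeping genes from −0.04 to 0.06. The study took a subset of 12 Tis11-sensitive mRNAs for its half-life measurements. Of these, 10 were measured and all 10 had an interaction below 0 (median −0.33, and −0.23 after quantile normalization was applied again), with 0 passing. This list was chosen by the study on the arrays without LPS, which enter the interaction with the opposite sign, so its direction is no independent evidence. NimB1 and NimB2, secreted proteins of the Nimrod family, were at −0.60 (SE 0.56) and −0.41 (SE 0.26), and Pxn, which encodes peroxidasin, at −0.38 (SE 0.95). NimC1, a phagocytosis receptor among the plasmatocyte markers, was at −0.33 (SE 0.28).

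Among probe sets whose mean was at least 6, those with the highest interaction by moderated t had opposite small responses in both backgrounds and were not LPS-raised. CG13042 went from 6.84, 6.45 and 6.79 to 6.48, 6.69 and 6.53 in GFP kd cells, and from 6.48, 6.67 and 6.54 to 6.79, 7.05 and 7.18 in Tis11 kd cells. The Tis11 kd arrays with LPS lay above those without, while the GFP kd arrays overlapped. The interaction was 0.57 (SE 0.19, interval 0.16 to 0.98, adjusted p = 1.00 by limma). It was 0.42 for CG7606, 0.37 for vex, 0.43 for TwdlH, a cuticle protein gene, and 0.57 for CG4741, and all 5 of these sat between 5.91 and 7.64.

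At the lower end, CG14074 went from 5.97, 5.90 and 5.94 to 6.05, 6.50 and 5.98 in GFP kd cells, and from 6.22, 6.18 and 6.05 to 5.85, 5.63 and 5.77 in Tis11 kd cells. LPS arrays were above the unstimulated ones in GFP kd cells and below them in Tis11 kd cells, without overlap in either. The interaction was −0.64 (SE 0.18, interval −1.04 to −0.24, adjusted p = 1.00 by limma). It was −0.43 for beag, −0.46 for CG10959, −0.44 for CG1663 and −0.44 for CG1647. The neuronal marker elav, near background in all arrays, had an interaction of −0.58 (SE 0.17, unadjusted p = 0.006, adjusted p = 1.00 by limma).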

How the data were processed

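The authors hybridised total RNA to Affymetrix Drosophila Genome 2.0 arrays and processed them with RMA (background correction, quantile normalization, median-polish summary). The deposited values are on a log2 scale. Whether all 12 arrays were normalized together, and the version of the software, are not given in the sources used here. The number of arrays limits the precision. No further normalization was applied. Gene names came from the platform annotation (13647 with 1 gene, 402 with several, 4720 with none), with symbols of 13544 updated by Entrez ID, and a gene of several was represented by the probe set with the highest mean.

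All 12 arrays entered 1 limma fit (limma 3.58.1, R 4.3.3, lmFit and eBayes) with a mean for each of 4 groups, contrasts for the interaction, the mean LPS response and the response in each background, and Benjamini-Hochberg adjustment over 18769 probe sets (threshold 0.05). Its p-values rest on the variation among 3 biological repeats a group. Named genes are the 15 largest rises of the mean LPS response with 1 gene, the 5 highest and 5 lowest interactions among those raised and, by moderated t, among those whose mean was at least 6, the antimicrobial peptide, PGRP and pirk lists, and members of 14 other lists with the largest interaction in size. The members and lists were chosen with earlier results of these data known. Alternatives were the replicate block, a level filter, 2 rescalings, an intensity trend, robust eBayes, array weights, each array left out, 1 probe set per gene, the 6 arrays of a background, the methods' t-test and ratios of mean linear intensities. Figures used Python 3.11.15 and matplotlib 3.10.9.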

Additional observations from a re-analysis of the deposited data

How the results depend on the processing

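The interaction passed for 0 probe sets in every fit run, with a smallest adjusted p of 1.00 by limma, and for 0 of the 51 probe sets followed by name. The replicate numbers did not pair the samples. Deviations of same-numbered arrays from their group means correlated from −0.76 to 0.82, over 0.1 in 3 of 18 pairs, and those of different numbers from −0.75 to 0.85. In all, 2 of 12 arrays correlated best with their own number. The arrays thus shared variation that the numbers do not follow. With LPS, GFP kd repeats 1, 2 and 3 correlated best with Tis11 kd repeats 1, 3 and 2 (0.72, 0.82 and 0.83). Without LPS, the partners were Tis11 kd repeats 2, 3 and 1 (0.85, 0.62 and 0.84). GFP kd arrays with LPS correlated best with unstimulated repeats 2, 1 and 3 (0.65, 0.61 and 0.82). For Tis11 kd arrays these were repeats 3, 1 and 2 (0.40, 0.52 and 0.42). No pairing was built from these values. The SEs and intervals come from a fit without it and may be too wide, which was not tested. With the replicate block, 0 probe sets passed for the interaction, 0 of the 29 intervals excluded 0, and the mean LPS response passed for 20 (19 of them among the 29), the GFP kd response for 14 and the Tis11 kd response for 15. Array weights gave 68 raised and 8 lowered in the mean LPS response, 28 raised in GFP kd cells and 29 in Tis11 kd cells, and the cause was not tested. The methods' t-test at an unadjusted p under 0.05 gave 174 higher and 358 lower in GFP kd and 433 higher and 239 lower in Tis11 kd cells, and after Benjamini-Hochberg 0 higher and 1 lower, and 0 higher and 0 lower. Leaving out 1 array, the mean LPS response gave 18 to 38 raised and 0 to 1 lowered, GFP kd 12 to 18, Tis11 kd 13 to 22, and, over the probe sets raised in each such fit, r was 0.97503 to 0.98494 and the median interaction −0.14 to 0.15. Over wider sets r was 0.63 (all probe sets) and 0.83 (mean of at least 6). The sign of the interaction, called in no gene, turned for Mtk (−0.0385) and Sulf1 (−0.0702) with centred arrays, for ome (0.16) and Rel (0.0679) with array weights, and for ome (0.12), Rel (0.0102) and CG14567 (−0.0589) with linear intensities. It also turned with 1 array left out for AttD (−0.20 to 0.72), Mtk (−0.16 to 0.26), CecB (−0.47 to 0.60), Sulf1 (−0.48 to 0.54), CG15423 (−0.23 to 0.67), ome (−0.56 to 0.54), CG8008 (−0.41 to 0.17), PGRP-LF (−0.56 to 0.0846), CG33468 (−0.26 to 0.10), Drs (−0.17 to 0.58), PGRP-SC2 (−0.31 to 0.59), PGRP-LA (−0.41 to 0.0111), dome (−0.59 to 0.0888), stv (−1.02 to 0.0608), Pxn (−1.10 to 0.20), Rel (−0.33 to 0.36) and CG14567 (−0.84 to 1.22).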
